A study of Homo sapiens with 6 samples.

Results

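The 46 genes described here encode the core machinery of autophagy and its cargo receptors. They were selected by gene symbol from a deposited table of 16670 genes: all ATG genes with a numbered symbol, all genes of the GABARAP, MAP1LC3 (LC3), WIPI and ULK families, and 15 further genes given by name, among them BECN1, SQSTM1 and NBR1. No measured value entered this rule, but the genes were chosen with earlier results of these data known. The cells were A549, an established human line of non-small cell lung cancer, and their RNA was sequenced. All 6 cultures had been exposed to the Aurora A kinase inhibitor alisertib for 1 week to make the cells senescent, that is, lastingly arrested in division. Of these, 3 (the untreated group) received nothing more, and 3 (the salinomycin group) were then given 2.5 µM salinomycin for 48 h, a polyether antibiotic that ferries potassium and other alkali cations through membranes. The comparison concerns the effect of salinomycin on cells that are already senescent, so both groups carry alisertib and no culture without it was analysed here. The labels call the 3 libraries of each group biological replicates, without saying how the cultures were kept apart, so the p-values measure the spread between these libraries.

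Autophagy delivers cytoplasm and organelles to the lysosome inside a membrane sac, the autophagosome. The ULK1 kinase complex starts the process, a class III PI3-kinase complex built on Beclin 1 marks the site, ATG9 vesicles and the lipid channel ATG2 supply membrane, and a pair of ubiquitin-like conjugation systems attach the ATG8 proteins (LC3 and GABARAP) to its lipid. Cargo receptors such as p62, the product of SQSTM1, bind both the cargo and the ATG8 proteins. Transcript levels report the supply of these components and not the rate at which cargo is degraded.

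Recovered sequencing depth lay between 13539959 and 19641149 reads per library, and values are given below in normalised units, the deposited values rescaled between libraries. Within each group the libraries correlated across genes with Pearson's r of 0.9916 to 0.9931 (log2 values), and between groups with 0.9342 to 0.9365. The summed level of the epithelial markers KRT8, KRT18, KRT19 and EPCAM was 149639 to 165384 units in untreated and 33271 to 37475 units in salinomycin libraries. KRT8 and KRT18 made up most of it, and EPCAM (46.7 ± 9.02 and 19.0 ± 3.06 units) was lower too, whereas KRT19 was higher (1898 ± 41.1 and 3164 ± 270 units). The endothelial markers PECAM1, VWF and CDH5 summed to at most 15.1 units in any library. Of the other markers the fibroblast genes COL1A1 (667 ± 128 and 416 ± 18.3 units in untreated and salinomycin libraries) and LUM (18.5 ± 6.41 and 8.71 ± 2.08 units) and the monocyte gene CD14 (201 ± 16.0 and 30.2 ± 9.88 units) were detected (SD, n = 3 per group), while the fibroblast genes COL1A2 and DCN were at or near 0. Mitochondrially encoded genes held 3.37% to 3.72% of the units in untreated and 0.289% to 0.351% in salinomycin libraries. The part of these markers in the results was not tested. A share of reads cannot tell fewer cells of a type from less RNA per cell.

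With salinomycin 24 of the 46 autophagy genes were called higher and 10 lower, and 12 did not pass the test (limma, Benjamini-Hochberg adjusted p under 0.05 over all 13088 tested genes). The background was high, since 81.9% of all tested genes passed (41.6% rose and 40.2% fell). Against it, 52.2% of the autophagy genes rose and 21.7% fell. Their median log2 change was 0.32, compared with 0.02 over all tested genes. At least 2-fold rises were found in 10 of the 46 (16.8% of all tested genes) and at least 2-fold falls in 1 (18.5%). All 46 passed the filter on low values, but MAP1LC3C did so through its untreated libraries only and so had to differ. It is one of the 10 lower genes and the only one with a 2-fold fall, and without it 9 were lower. The groups did not overlap for 36 of the 46, against 83.0% of all tested genes. Scaling by library totals alone moved the median of all tested genes from 0.022 to 0.212 and gave 30 higher and 8 lower autophagy genes (49.4% and 33.3% of all tested genes), and upper-quartile scaling gave 24 and 12 (38.3% and 43.7%), so changes below about that shift depend on where no change is placed.

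**Figure D1:**
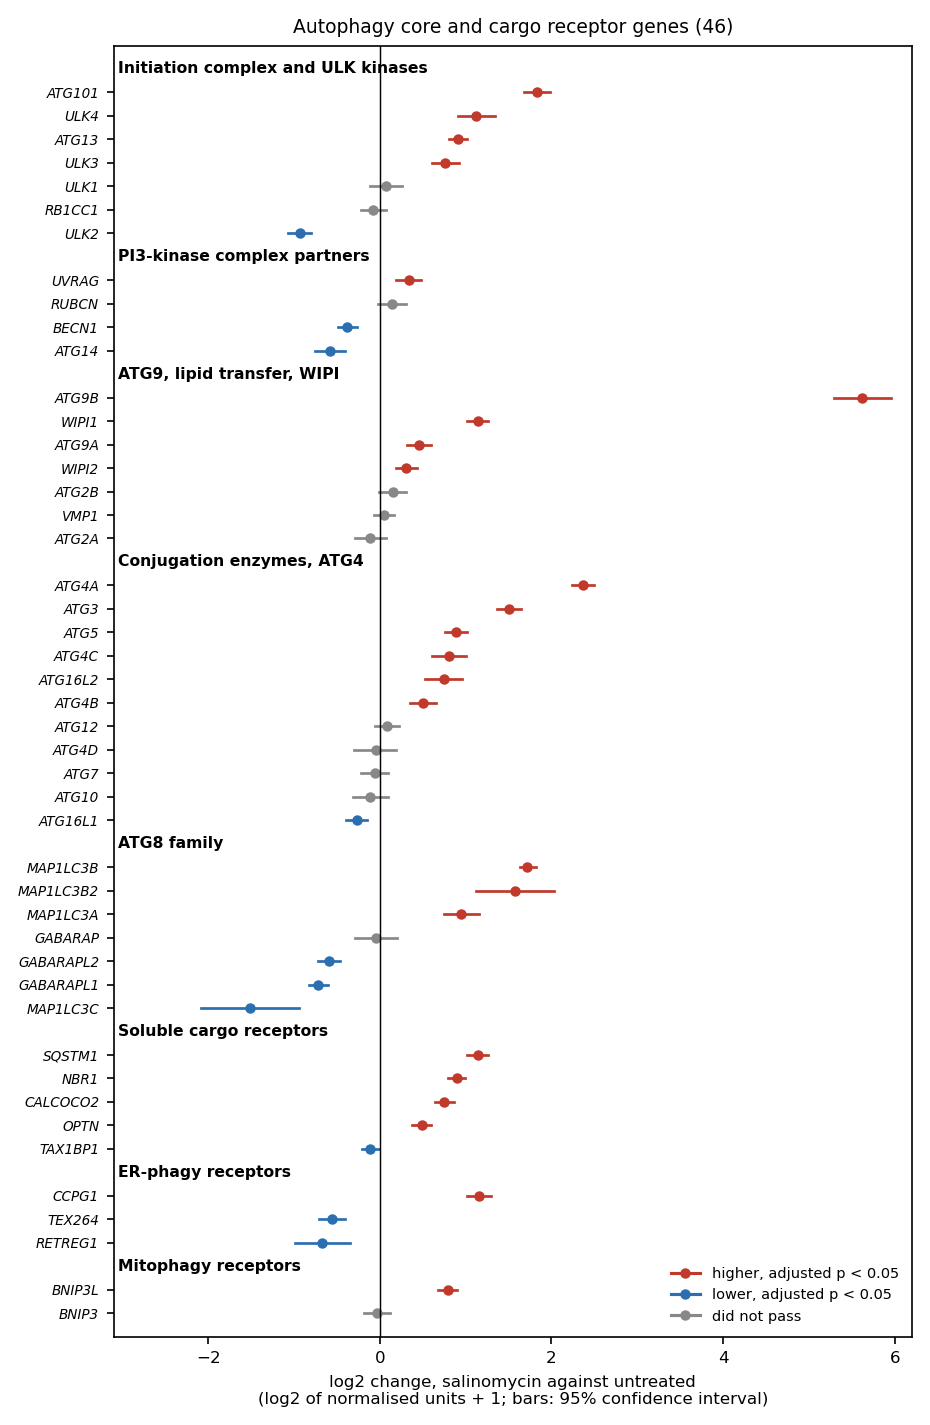
Log2 change of each of the 46 genes, salinomycin against untreated (x axis), by role in autophagy, with 95% confidence intervals from limma (n = 3 libraries per group). ATG9B lies far to the right at 5.62, followed by ATG4A at 2.37 and ATG101 at 1.83, while the ATG8 family and the ER-phagy receptors spread to both sides of 0.

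Promoters were searched for sites of stress and lysosomal transcription factors, and stretches before 4 RefSeq starts (GRCh38.p14) are shown, with capitals for a match. ATG9B, which rose most, and ULK2, which fell to 0.523 of its level, were picked for their changes. ATG4A, ATG101 and MAP1LC3B were picked too but are not shown. A stretch of 120 bases was left out where the gene had no promoter sequence or the stretch overlapped an annotated exon. ATG3, which rose 2.85-fold, and GABARAPL1, which fell 1.64-fold, were chosen after the search because their windows held a match. The first is the 120 bases before ATG9B, chr7:151024500-151024619 (minus strand), and the second the 120 bases before ULK2, chr17:19867937-19868056 (minus strand). The third lies just before the start of ATG3, chr3:112561963-112561990 (minus strand), with an E-box, and the fourth lies before GABARAPL1, chr12:10212837-10212866 (plus strand), with a cAMP response element. The last pair lie before the RefSeq starts but inside an exon of GENCODE release 29, and were kept because they are short.
ATG9B: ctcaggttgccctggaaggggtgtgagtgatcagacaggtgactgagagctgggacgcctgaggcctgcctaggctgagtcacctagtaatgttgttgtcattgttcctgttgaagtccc
ULK2: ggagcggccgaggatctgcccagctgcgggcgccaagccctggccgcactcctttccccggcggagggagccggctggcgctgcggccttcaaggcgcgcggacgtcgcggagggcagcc
ATG3: tttctcacgtCACGTGccgggagagtct
GABARAPL1: gctcgcggggTGACGTCAcagcccgacgcg

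Promoter windows of 300 bases (250 before to 50 after the start) were matched for 40 of the 46 genes, and both strands were searched. Positions count from 1 at the start, and negative ones lie before it. The E-box CACGTG, which MYC and the MiT/TFE factors bind, was in 4 of the 40 (ATG3, ATG14, BNIP3 and ULK3), against 9.30% of 13233 promoters. Its longer lysosomal form TCACGTGA, the CLEAR motif, contains the E-box and was in 1, at position 5 of ATG3, against 1.64%. The ATF4 element TGATGNAA was in 1, at position -116 of MAP1LC3C, against 2.03%. The cAMP response element TGACGTCA was in 1, GABARAPL1, against 2.85%. The ER stress element (ERSE) and the shorter CCACGTCA were in 0 of 40, against 0.128% and 0.914%. Of the 20 genes with a window that rose, 2 held an E-box (ATG3 and ULK3), as did 2 of the 20 that did not rise. The windows cover only the region beside 1 start per gene, and a match is not evidence of binding.

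Among the initiation genes, ATG101 and ATG13, which encode the 2 subunits that bridge the ULK1 complex, both rose, whereas the genes of the kinase itself and of its scaffold did not pass. ATG101 (chromosome 12, 52069246 to 52077494, GRCh38, GENCODE release 29) measured 814, 704 and 769 units in the untreated libraries and 2511, 2709 and 2916 with salinomycin. The groups were far apart, a 3.56-fold rise (log2 change 1.83, SE 0.07; limma adjusted p = 2.78e-10). An antisense transcript annotated at the locus shares 614 exon bases with ATG101. Such shared exon bases with another gene were found for 21 of the 46 genes, for 20 of them on the other strand, and whether counting used strand was not stated, so reads of the partners cannot be told apart there. ATG13 (chromosome 11, 46617527 to 46674818) went from 2400, 2434 and 2390 to 4459, 4675 and 4446 units, a 1.88-fold rise with little spread in either group. ULK1 measured 2427, 1976 and 2579 units without and 2369, 2402 and 2525 units with salinomycin. Its groups overlapped, and the 95% interval of the log2 change was -0.11 to 0.26. It passed with scaling by library totals, at 0.26. RB1CC1, which encodes the scaffold FIP200, likewise overlapped, with an interval of -0.22 to 0.07, and passed at -0.16 with upper-quartile scaling.

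The 4 ULK kinase genes did not move as a family. ULK2, whose product can stand in for ULK1, was the initiation gene that fell: from 1082, 1161 and 1143 units to 598, 618 and 556 (log2 change -0.93, SE 0.062; limma adjusted p = 3.69e-08). The ratio of ULK1 to ULK2, in units per kb of exon, went from 2.44 ± 0.373 to 4.88 ± 0.424 (n = 3 each, SD; exact permutation test, two-sided, p = 0.1, and 3 against 3 libraries can give no smaller p). ULK3, a kinase also linked to Hedgehog signalling, rose 1.69-fold to 1100 ± 18.2 units. ULK4, a member classed as a pseudokinase, rose 2.19-fold to 246 ± 14.4 units. Neither of the latter is part of the canonical initiation complex. In the role group of 7 genes, 4 rose, 1 fell and 2 did not pass (41.6% of all tested genes rose and 40.2% fell).

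The partners of the class III PI3-kinase changed little and in opposite directions. BECN1, the gene of Beclin 1 (chromosome 17, 42810134 to 42833350), fell from 2287, 2336 and 2364 to 1739, 1787 and 1844 units, 0.768 of the untreated mean. ATG14, whose product directs the kinase to sites of autophagosome formation, fell from 381, 413 and 395 to 272, 270 and 253 units, 0.669 of the untreated mean. BECN1 and ATG14 were thus lower in every salinomycin library than in any untreated one (limma adjusted p = 1.29e-05 and 1.95e-05). Other genes of the same complex, from the list of further genes below, did not fall with them. PIK3C3, the gene of the kinase itself, rose (log2 change 0.21, limma adjusted p = 0.0087), as did NRBF2, and PIK3R4 did not pass. UVRAG, the subunit that replaces ATG14 in a complex on endosomes, rose 1.26-fold, from 430 ± 15.2 to 542 ± 19.3 units (n = 3 per group). RUBCN, the gene of Rubicon, an inhibitor of the UVRAG complex, measured 338, 340 and 330 units and 376, 381 and 356 units. These values do not overlap, but the gene did not pass (limma adjusted p = 0.089) except under scaling by library totals, where its log2 change was 0.33.

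Of the genes that supply or mark the growing membrane, 4 of 7 rose and none fell (41.6% and 40.2% of all tested genes). ATG9B (chromosome 7, 151012209 to 151024499), which encodes one of the 2 ATG9 lipid scramblases, had 14.1, 10.6 and 12.8 units in the untreated libraries, or 33 reads over the group. With salinomycin it had 785, 587 and 621 units, or 2347 reads, a 53.2-fold rise (log2 change 5.62, SE 0.15; limma adjusted p = 1.84e-11). The log2 change was 5.03 with a pseudocount of 8. ATG9B shares 662 exon bases with NOS3 on the other strand, and NOS3 measured 0.7 units without and 4.0 units with salinomycin. The widely expressed paralog ATG9A (chromosome 2, 219219380 to 219229717) rose 1.37-fold, from 895, 817 and 946 to 1195, 1266 and 1194 units. It shares 1833 exon bases with an unnamed gene on its own strand. Per kb of exon, ATG9B stood at 0.0113 ± 0.00114 of the ATG9A level without and at 0.440 ± 0.0798 with salinomycin (n = 3 each, SD; exact permutation test, two-sided, p = 0.1).

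WIPI1 and WIPI2 encode readers of the lipid that the PI3-kinase makes, and WIPI2 recruits the ATG16L1 conjugation complex. WIPI1 (chromosome 17, 68420948 to 68457513) went from 958, 1034 and 941 to 2097, 2227 and 2146 units, a 2.21-fold rise, and WIPI2 from 1532, 1461 and 1437 to 1742, 1857 and 1892 units, a 1.24-fold rise. Both passed, WIPI1 with the larger change. The lipid channel genes ATG2A and ATG2B did not pass, with 95% intervals of the log2 change of -0.29 to 0.07 and -0.01 to 0.31. ATG2B passed with scaling by library totals (log2 change 0.34), with limma-voom (0.16) and without untreated replicate 2 (0.19). ATG2A, with a value of -0.19, passed as lower without the same library and with upper-quartile scaling. VMP1, the gene of an ER scramblase that acts with ATG2 and ATG9, had the highest level of this group per kb of exon (2527 untreated units per kb). Its log2 change of 0.05 did not pass, but passed at 0.24 with scaling by library totals.

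The conjugation enzymes and ATG4 proteases rose in 6 of 11 cases and fell in 1 (41.6% and 40.2% of all tested genes). ATG4A (chromosome X, 108091668 to 108154671) encodes a protease that trims ATG8 proteins, with a preference for the GABARAP subfamily. It went from 369, 390 and 362 to 1833, 1999 and 1981 units, 5.19-fold, with all libraries of a group close together (log2 change 2.37, SE 0.061; limma adjusted p = 1.26e-11). ATG4B, the broadly acting protease of the family, rose 1.42-fold and ATG4C 1.75-fold. ATG4D did not pass, at 213 ± 27.7 and 204 ± 12.1 units (n = 3 per group). The order of levels among the 4 protease genes per kb of exon was ATG4B (282 units per kb), ATG4A (161), ATG4D (109) and ATG4C (52.8) in untreated libraries. With salinomycin ATG4A came first, at 837 units per kb against 399 for ATG4B.

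ATG3, the E2-like enzyme that joins ATG8 proteins to lipid (chromosome 3, 112532509 to 112562046), measured 574, 578 and 507 units without and 1541, 1574 and 1610 with salinomycin (limma adjusted p = 6.46e-10). The other 2 enzymes of the pathway did not pass. ATG7, the E1-like enzyme of both systems, had a log2 change of -0.06 (95% interval -0.22 to 0.10), and ATG10, the E2-like enzyme for ATG12, had -0.11 (-0.31 to 0.10). ATG7 shares 1596 exon bases with VGLL4 on the other strand. ATG5, which is joined to ATG12 to form part of the E3-like complex, rose 1.85-fold from 463 ± 12.1 to 856 ± 20.7 units. Its partner ATG12 did not pass, at 779 ± 5.63 and 825 ± 58.5 units, but passed with scaling by library totals (log2 change 0.27). The third part of the complex split between its 2 genes. ATG16L1 fell from 1909, 1745 and 1937 to 1511, 1589 and 1542 units, a log2 change of -0.27 that was -0.08 and did not pass with scaling by library totals. Its paralog ATG16L2 rose 1.69-fold, from 306, 332 and 298 to 611, 481 and 488 units, and it shares 680 exon bases with FCHSD2 on the other strand (663.5 and 410.3 units).

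**Figure D2:**
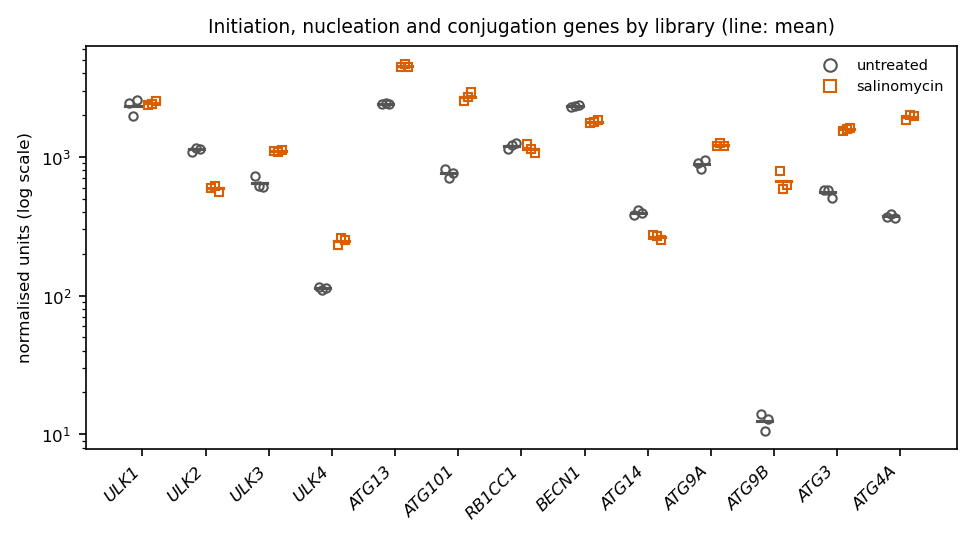
Normalised units (log scale) of 13 initiation, nucleation, membrane and conjugation genes in each library, with untreated libraries as circles, salinomycin libraries as squares and group means as lines (n = 3 per group). ATG101, ATG9B, ATG3 and ATG4A separate widely upward, ULK2 and ATG14 downward, and ULK1 and RB1CC1 overlap.

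In the ATG8 family the 2 main LC3 genes rose and 2 of the 3 GABARAP genes fell. MAP1LC3B, the LC3 gene most used as a marker of autophagosomes (chromosome 16, 87383995 to 87404779), went from 2878, 2812 and 2808 to 9313, 9291 and 9437 units. Libraries within a group differed by a few percent, and the rise was 3.30-fold (log2 change 1.72, SE 0.044; limma adjusted p = 1.1e-11). MAP1LC3A, the second LC3 gene, rose 1.94-fold, from 314, 280 and 338 to 540, 621 and 643 units. GABARAPL1 fell from 3201, 3192 and 3212 to 1853, 1934 and 2059 units (log2 change -0.72, SE 0.051; limma adjusted p = 6.94e-08). GABARAPL2 fell from 1649, 1693 and 1500 to 1046, 1090 and 1074 units, a 1.51-fold fall. GABARAP itself did not pass, with 174, 150 and 154 units and 139, 158 and 165 units. It shares 691 exon bases with an unnamed gene on its own strand. In all, no GABARAP gene rose, and 3 of the 4 LC3 genes did (41.6% of all tested genes rose).

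The remaining LC3 genes were low. MAP1LC3C, which encodes a divergent LC3 used in defence against bacteria, measured 23.8, 20.2 and 20.3 units without and 6.48, 6.56 and 7.51 units with salinomycin, or 56 and 23 reads over the groups. Since it passed the filter through the untreated libraries only, nothing is read from its call. MAP1LC3B2 rose from 27.0, 34.0 and 19.2 to 75.0, 88.1 and 77.0 units, but it is a near-identical copy of MAP1LC3B, so reads could have been split between them and the value is uncertain.

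Summed per kb of exon, the LC3 genes had 0.506, 0.488 and 0.521 times the level of the GABARAP genes in the untreated libraries and 2.42, 2.35 and 2.33 times with salinomycin. The ratio was thus higher in every salinomycin library than in any untreated one. It went from 0.505 ± 0.0166 to 2.37 ± 0.0476 (n = 3 each, SD, exact permutation test, two-sided, p = 0.1). These ratios rest in part on GABARAP, whose level per kb is uncertain because it shares exon bases with a gene on its own strand. In untreated libraries the order per kb was GABARAPL2 (1184 units per kb), GABARAPL1 (1071), MAP1LC3B (939), MAP1LC3A (176), GABARAP (70.3), MAP1LC3B2 (40.5) and MAP1LC3C (18.1). With salinomycin MAP1LC3B led at 3099 units per kb, ahead of GABARAPL2 (785) and GABARAPL1 (652). MAP1LC3B alone made up 26.8% ± 0.460 of the family without and 61.1% ± 0.970 with salinomycin. Levels per kb assume reads along the whole transcript, and the library preparation was not given in the sources used here.

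**Figure D3:**
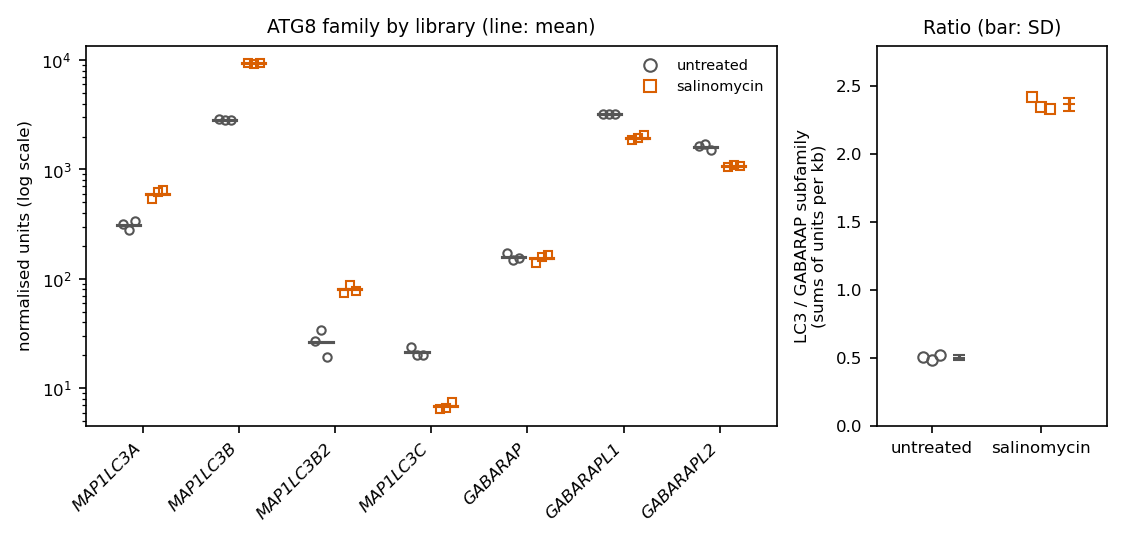
Left, normalised units (log scale) of the 7 ATG8 family genes in each library, with group means as lines. Right, ratio of the summed LC3 to the summed GABARAP genes in units per kb, with mean and SD (n = 3 per group), which went from 0.505 to 2.37.

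Soluble cargo receptors rose in 4 of 5 cases (41.6% of all tested genes rose). SQSTM1 (chromosome 5, 179806398 to 179838078), the gene of the ubiquitin-binding receptor p62, was the most abundant of all 46 genes per kb in both groups. It went from 19884, 18601 and 18236 to 40421, 41168 and 43410 units, a 2.20-fold rise with no overlap (log2 change 1.14, SE 0.057; limma adjusted p = 2.61e-09). Its share of the summed units of the 46 genes went from 25.1% ± 0.734 to 34.5% ± 0.753 (SD, n = 3 per group). SQSTM1 shares 1384 exon bases with MRNIP on the other strand, which had 482.7 units without and 335.5 with salinomycin. NBR1, the gene of a receptor that works with p62 (chromosome 17, 43170481 to 43211689), rose from 4034, 4098 and 4217 to 7614, 7741 and 7617 units, 1.86-fold. CALCOCO2, the gene of NDP52, a receptor for bacteria and mitochondria, rose from 2604, 2686 and 2537 to 4367, 4570 and 4233 units, 1.68-fold.

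OPTN, the gene of optineurin, a receptor for damaged mitochondria, rose 1.41-fold, from 1957 ± 95.9 to 2751 ± 11.7 units. TAX1BP1, a paralog of CALCOCO2, was the exception, at 3876, 4016 and 3937 units and then 3572, 3755 and 3619 units. Its log2 change of -0.11 passed narrowly (limma adjusted p = 0.0391). That call was lost with the replicate number as a block (adjusted p = 0.103), with limma-voom (0.0739) and on leaving out any single library but salinomycin replicate 2, and with scaling by library totals the value was 0.08.

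The ER-phagy receptors, which tether parts of the endoplasmic reticulum to the autophagosome, moved apart. CCPG1 (chromosome 15, 55340032 to 55408510), a receptor known to be induced by ER stress, rose from 830, 870 and 932 to 2101, 1941 and 1836 units, 2.23-fold (log2 change 1.16, SE 0.065; limma adjusted p = 7.86e-09). A readthrough transcript annotated on the same strand shares 3405 exon bases with it. TEX264 fell from 1155, 1056 and 1045 to 690, 718 and 809 units, and RETREG1, the gene of FAM134B, fell from 136, 110 and 130 to 88.9, 65.6 and 81.7 units. Both were lower in every salinomycin library than in any untreated one, by 1.47-fold and 1.59-fold.

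Of the mitophagy receptors, which hand mitochondria to the autophagosome, BNIP3L, the gene of NIX, rose from 1993, 1878 and 1976 to 3467, 3288 and 3359 units, 1.73-fold (limma adjusted p = 1.78e-08). BNIP3, its paralog and a hypoxia-induced gene, did not pass, with 1176, 1138 and 1009 units and 1041, 1078 and 1130 units. The 95% interval of its log2 change was -0.18 to 0.12, and with scaling by library totals it passed at 0.16. The lower share of mitochondrially encoded genes in the salinomycin libraries stands beside these values, and its part in them was not tested. With those genes left out before scaling, 24 autophagy genes were again called higher and 10 lower.

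**Figure D4:**
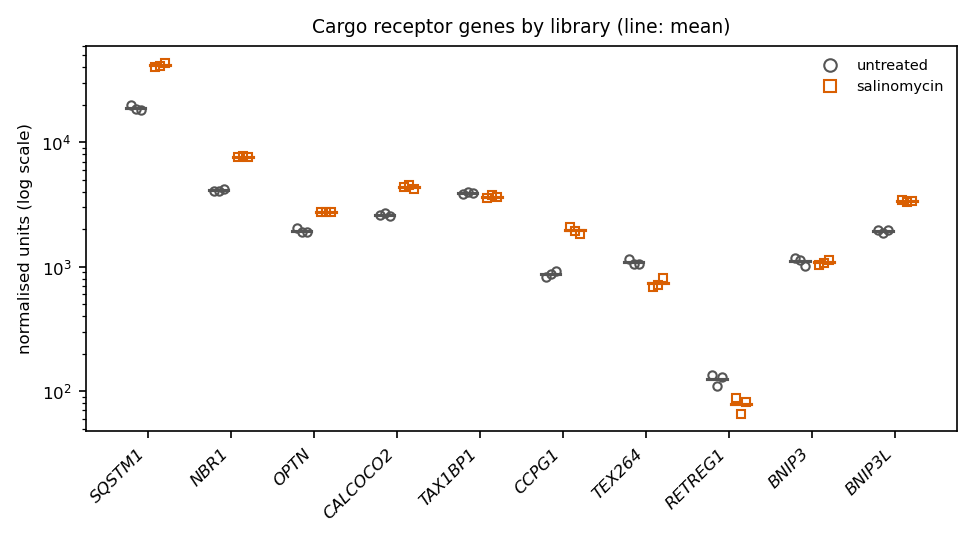
Normalised units (log scale) of the 10 cargo receptor genes in each library, with untreated libraries as circles, salinomycin libraries as squares and group means as lines (n = 3 per group). SQSTM1 stands above the rest in both groups, and TEX264 and RETREG1 lie lower with salinomycin while CCPG1 lies higher.

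Related genes were called in opposite directions in 4 families. ULK2 fell while ULK3 and ULK4 rose, GABARAPL1 and GABARAPL2 fell while MAP1LC3A and MAP1LC3B rose, ATG16L1 fell while ATG16L2 rose, and TAX1BP1 fell while CALCOCO2 rose. The calls of ATG16L1 and TAX1BP1 were lost under the alternatives given above. Apart from the ratios given, differences between related genes were not tested. Together the 46 genes made up 0.431% ± 0.00386 of all units without and 0.791% ± 0.00697 with salinomycin (n = 3 each, SD, exact permutation test, two-sided, p = 0.1). Among the 46 genes, SQSTM1 and MAP1LC3B added most to this difference. Such a share follows library totals, so it also depends on the levels of all other genes, among them the lower KRT8, KRT18 and mitochondrially encoded genes. Replicate spread was small next to the changes given above for most genes. Among genes above 100 units the untreated libraries varied most for ULK1 (coefficient of variation 13.5%) and ATG4D (13.0%) and least for GABARAPL1 (0.314%).

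A list of 43 other autophagy genes was drawn up by function, with earlier results of these data known. Among 42 tested, 20 were higher, 14 lower and 8 did not pass, with a median log2 change of 0.01 (41.6% of all tested genes were higher and 40.2% lower). The split was 22 higher and 10 lower with scaling by library totals (49.4% and 33.3% of all tested genes), and 18 and 19 with upper-quartile scaling (38.3% and 43.7%). Of the 9 genes for the PI3-kinase complex and membrane supply, 7 rose and none fell. TMEM41B, an ER scramblase gene that acts with VMP1, rose from 797, 743 and 733 to 3140, 2632 and 2814 units, 3.78-fold, whereas VMP1 did not pass. NRBF2, a subunit gene of the ATG14 complex, rose 2.55-fold, from 413, 465 and 416 to 1072, 1146 and 1081 units, opposite to BECN1 and ATG14. Of 14 tested further receptors and adaptors, 5 rose and 8 fell, none of them 2-fold.

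Among 9 genes for fusion of autophagosomes with lysosomes, 5 rose and 2 fell (41.6% and 40.2% of all tested genes). YKT6, a SNARE gene also used in Golgi transport, went from 3017, 2902 and 2819 to 8700, 8903 and 9175 units, 3.06-fold, and PLEKHM1, an adaptor gene that binds ATG8 proteins and RAB7, rose 2.76-fold to 2006 ± 41.2 units. VAMP8, the SNARE on the lysosome, fell from 621, 668 and 546 to 348, 364 and 374 units, and FYCO1, an adaptor gene for transport along microtubules, fell from 851, 938 and 1071 to 512, 443 and 463 units. The fusion genes thus moved both ways, these 4 without overlap between groups.

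Transcription factors and regulators of autophagy genes included the largest rise and the largest falls of this list. DEPP1, a FOXO target gene, rose 4.67-fold from 36.8, 24.5 and 26.7 to 139, 139 and 133 units. TFEB, the gene of the factor that drives lysosomal and autophagy genes through CLEAR motifs, fell from 181, 114 and 153 to 57.4, 49.7 and 49.8 units (log2 change -1.47, SE 0.17; limma adjusted p = 5.24e-06). Its relatives differed: TFE3, at 810 untreated units per kb of exon against 33.4 for TFEB, rose 1.28-fold from 2765 ± 77.5 to 3539 ± 80.3 units, and MITF did not pass (769 ± 38.3 and 751 ± 15.7 units). TP53INP1, which encodes a p53-induced autophagy regulator, fell from 1271, 1353 and 1336 to 573, 469 and 418 units, and ZKSCAN3, the gene of a repressor of autophagy genes, from 99.5, 123 and 100 to 57.4, 42.2 and 51.6 units.

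**Figure D5:**
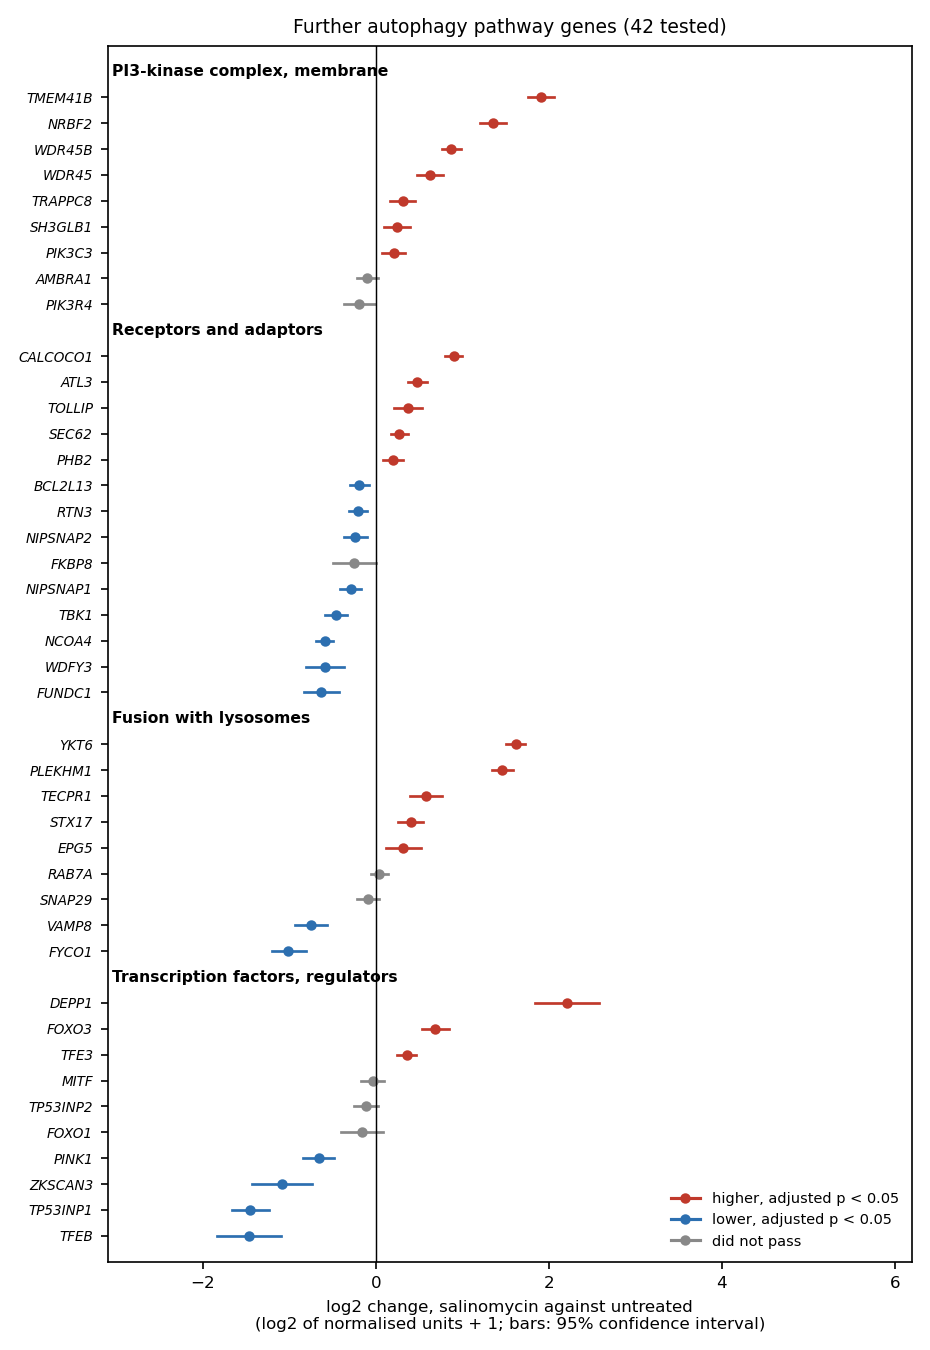
Log2 change of the 42 tested further autophagy genes, salinomycin against untreated (x axis), by role, with 95% confidence intervals from limma (n = 3 libraries per group). DEPP1, TMEM41B, YKT6, PLEKHM1 and NRBF2 lie above 1, and TFEB, TP53INP1, ZKSCAN3 and FYCO1 below -1.

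In the authors' deposited table, 29 of the 46 genes were higher and 8 lower at an adjusted p under 0.05, against 41.9% and 28.1% of the 15107 genes with an adjusted p there. Of the 34 genes called above, 32 were called there in the same direction. Both rest on the same 6 libraries, so this is not an independent check. The authors' log2 values lie near those with scaling by library totals (for ATG101 2.03 and 2.02), not those of the main fit (1.83). The other two were ATG16L1 (-0.071) and TAX1BP1 (0.0847), log2 values of the authors' deposited table that did not pass there. The authors' deposited table of gene sets held 30 sets named for autophagy or its forms, of which 26 had a positive score, against 50.9% of all 21624 sets. There, 6 of the 30 passed an adjusted p under 0.05, all with a positive score, and 5.01% of all sets passed with a positive score. The sets overlap one another and hold many of the 46 genes, and are not independent of the values above.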

How the data were processed

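RNA-seq values of 6 libraries, 3 per group, were used. Per the submitters' processing notes the genome was GRCh38. The sources used here do not give the aligner, counter, annotation or library kit. Signal values, as deposited, are whole numbers that the authors had rescaled, with totals within 0.692% of each other and a lowest value of 1, so 1 appeared to have been added. Per the file headers, the authors' table also gave log10 means, log2 fold changes, the linear fold change (a ratio), a test score and p-values, and a second deposited table gave enrichment scores and p-values of gene sets.

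After subtraction of this 1, libraries were scaled by trimmed-mean (TMM) factors (30% trimming of log ratios, 5% of levels). Log2 of the value plus 1 was tested with limma 3.58.1 in R 4.3.3, with the trend option and Benjamini-Hochberg adjustment over 13088 genes that had 10 or more in at least 3 libraries. Fold ratios are ratios of group means of normalised units. Log2 changes understate the change of low genes. The values were not raw counts, so no count model was used. Reads were estimated from the rounding steps of low values, which came from a whole number of reads in at least 99.47% of cases (in libraries with a scale factor of 1 or less this holds by construction). Library pairs within groups differed by more than sampling noise. The fit was also run on simulated data in which few genes changed, so that run does not test the scaling.

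Coordinates and exon lengths are those of GENCODE release 29 (1-based), and promoters those of RefSeq. All 46 genes could be named, and of the list of further genes the 5 largest rises and falls with no overlap, with TFEB, TFE3 and MITF. PIK3C3 and PIK3R4 were added as genes of the same complex as BECN1. Other genes were chosen after their values were seen. The genes and lists were chosen with earlier results of these data known. The alternatives were 3 other scalings, no filter and a stricter one (50 or more), pseudocounts of 0.5 and 8, the replicate number as a block, limma-voom on recovered reads, leaving out mitochondrial genes before scaling, and leaving out each library.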

Additional observations from a re-analysis of the deposited data

How the results depend on the processing

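Under 16 alternatives the number of autophagy genes called higher stayed between 24 and 30 and the number called lower between 8 and 12. The median log2 change of the autophagy genes, 0.32, was 0.51 with scaling by library totals and 0.24 with upper-quartile scaling. It lay between 0.29 and 0.36 when single libraries were left out. The call of 36 of the 46 genes did not change wherever they were tested, 32 of them called genes. The 10 whose call changed (ATG12, ATG16L1, ATG2A, ATG2B, BNIP3, RB1CC1, RUBCN, TAX1BP1, ULK1 and VMP1) had log2 changes between -0.27 and 0.15. With scaling by library totals, which moves all genes by a like amount, the sign turned for 8 autophagy genes and for MITF (0.16). Of these BNIP3 (0.16) and TAX1BP1 (0.08) passed in one of the fits, and ATG10 (0.08), ATG2A (0.08), ATG4D (0.14), ATG7 (0.13), GABARAP (0.14) and RB1CC1 (0.11) passed in neither. With upper-quartile scaling RB1CC1 passed at -0.16. MAP1LC3C was not tested under the stricter filter or without any single untreated library. The replicate numbers of the labels did not pair the libraries: same-numbered libraries had deviations from their group means correlated at -0.172, -0.0131 and -0.0326, and untreated replicate 1 correlated best with salinomycin replicate 3. With the replicate number as a block 24 autophagy genes were higher and 9 lower, the median log2 change was 0.32, 20 further autophagy genes were higher and 15 lower, and of all tested genes 5325 were higher and 5130 lower. Depth limits MAP1LC3C and ATG9B, with 23 and 33 reads in their lower group.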
